A study of Mus musculus with 6 samples.

Results

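Kinesins are motor proteins that use ATP to walk along microtubules or to take their ends apart. In the testis they build the spindle of dividing spermatogonia and spermatocytes, bring material along the axoneme to the tip of the growing flagellum, and carry vesicles, organelles and RNA in germ cells and somatic cells. Many kinesins work as a dimer of motor chains, and some of these carry accessory chains, such as the kinesin light chains that bind cargo for the conventional kinesin heavy chains. The kinesin motor genes described here were taken by symbol, as every gene whose name in the platform annotation begins with Kif and a digit, with Kifc, or with Klc and a digit. This gave 44 genes, read by 110 probe sets that name one gene alone, out of 18193 genes so named on the array. The brightest probe set of a gene, by mean log2 signal over all arrays, stood for it, and 39 of the 44 genes passed the filter on dim probe sets and were tested, out of 13447 genes tested in all. The 5 that did not pass were Kif12, Kif14, Kif15, Kif28 and Kifc5b, whose signals ran from 0.8 to 50.3 and overlapped between the groups in each case.

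RNA came from whole testes at postnatal day 21 of mice carrying 2 copies of a floxed Dazap1 allele that keeps its neo cassette (Fn) and of wild-type mice (Wt), both on a mixed C57BL/6 and 129 background, with 3 samples of each genotype on 6 Affymetrix Mouse Genome 430 2.0 arrays. DAZAP1 is an RNA-binding protein of the hnRNP family, and the Fn allele makes a DAZAP1 protein with an extra segment between its RNA recognition domains, in all tissues that express it, since the allele is in the germline. Per the paper most homozygotes die around birth, so the Fn testes are those of survivors, which are growth retarded. The labels call the samples biological replicates and the paper speaks of different RNA preparations, without naming the animals behind each, so a p-value here covers only how these samples spread, which may be partly technical.

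The deposited values are MAS5 signals, a linear intensity for each probe set, and the mean of each array's values without the extremes was 498.6 in the Fn arrays and 498.4 to 498.5 in the Wt arrays. The probe set of Dazap1 had signals of 2537.6, 2734.9 and 2819.8 in Fn testes and of 4323, 4462.4 and 5045.7 in Wt testes, so every Fn array lay below every Wt array. Late germ cell markers were lower in Fn testes, whereas markers of spermatogonia, Sertoli cells and peritubular cells were mostly higher. Of all genes tested, 24.7% were lower and 44.9% higher at an adjusted p under 0.05 from limma, the shares to set beside the counts below. Of 7 genes of pachytene and later spermatocytes 6 were lower and 0 higher (summed signal 12217 to 18649 in Fn arrays, 52107 to 55111 in Wt arrays). Of 6 tested genes of round and elongating spermatids 5 were lower and 0 higher (sums over 9 genes of 636 to 714 in Fn and 3486 to 6160 in Wt). Among those called lower, Ccna1 of the first list and Smcp, Odf1, Acrv1 and Prm2 of the second had Fn geometric means under the filter level of 48. These genes were tested only because their Wt signals were high, so their calls could go no other way and add nothing to the sums. All 7 genes of spermatogonia were higher (13193 to 15112 in Fn, 6633 to 8150 in Wt), as were 6 of 7 genes of Sertoli cells (34694 to 35439 in Fn, 21784 to 25049 in Wt) and all 6 of peritubular myoid and stromal cells (30629 to 31527 in Fn, 14336 to 18026 in Wt). Of early meiotic prophase genes 1 was lower, 2 were higher and 4 did not pass the test, with sums of 28270 to 30555 in Fn and 28691 to 31980 in Wt. Of Leydig cell genes 2 of 4 were higher (6001 to 11818 in Fn, 6051 to 10021 in Wt), of macrophage genes 3 of 5 (3187 to 4429 in Fn, 2293 to 2919 in Wt) and of endothelial genes 1 of 5 (760 to 800 in Fn, 553 to 676 in Wt). These are 50%, 60% and 20% of very few genes, beside 44.9% of all genes, so the counts cannot tell whether these cell types shifted. The sums of the macrophage and endothelial genes were higher in every Fn array than in every Wt array, and those of the Leydig cell genes overlapped. Of neuronal and glial genes, 4 tested, 1 was lower and 1 higher (385 to 529 in Fn, 344 to 444 in Wt). No marker of these lists was at 0 in any array. These shifts run alongside all the kinesin results below, and their part in them was not tested. In whole testes fewer cells of a type and less RNA per cell cannot be told apart. The paper also raises the concern that Fn pachytene spermatocytes at this age may lag behind those of Wt testes, given the growth retardation. For its exon arrays it therefore turned to adult Fn testes. Such a lag was not tested here and cannot be told apart from an effect of the genotype at equal stage.

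Of the 39 kinesin genes tested, 15 were lower and 12 higher in Fn testes at an adjusted p under 0.05 from limma, and 12 did not pass the test. Those are 38.5%, 30.8% and 30.8% of the kinesin genes, where 24.7% of all genes tested were lower, 44.9% higher and 30.4% not past the threshold. The kinesin genes had a median log2 change, Fn minus Wt, of 0.13, and all genes one of 0.32. The median moved with the scaling, to -0.03 with the arrays centred on their medians, where that of all genes was 0.17. With any of 3 other scalings of the arrays the count of lower genes stayed at 15 and that of higher genes was 8, and none of the 27 called genes changed its sign. The 3 Fn values lay wholly below the 3 Wt values in 15 kinesin genes and wholly above them in 14, or 38.5% and 35.9%, where the shares over all genes were 26.6% and 48.9%. By more than 2-fold, 4 kinesin genes were lower and 3 higher, or 10.3% and 7.69%, against 13.9% and 11.8% of all genes. Kif2b is in each of these lower counts and in that of the division group below. It passed the filter only through its Wt arrays, so its call could go no other way. The roles below were assigned from general knowledge of each motor, but with earlier results of these data known. The split by role is therefore a description and not a test. Of 9 kinesins of cilia and flagella tested, 7 were lower and 2 higher (77.8% and 22.2%, median log2 change -0.76), and of 12 of the spindle and of division 6 were lower and 2 higher (50% and 16.7%, median -0.14). Of 18 of cargo transport with the light chains 2 were lower and 8 higher (11.1% and 44.4%, median 0.36), so the share higher and the median lay close to those of all genes.

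**Figure D1:**
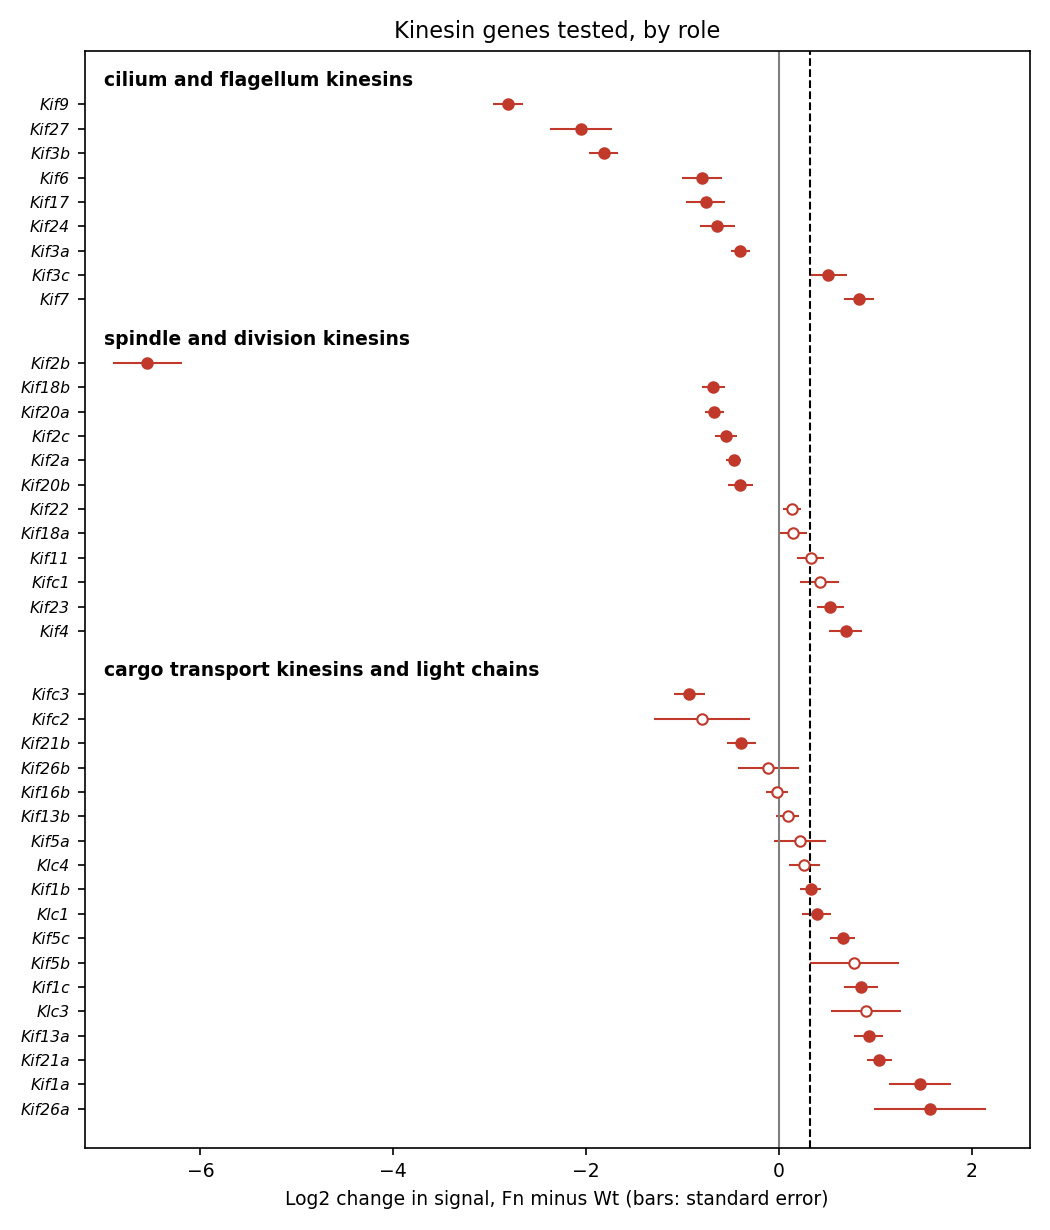
Fn minus Wt difference in log2 signal of the 39 kinesin genes tested, grouped by role and ordered within each group, from 3 arrays per genotype. Bars are standard errors, filled points are genes called by limma (adjusted p below 0.05) and open points those not called, with a grey line at 0 and a dashed one at 0.32, the median of all genes. The cilium and flagellum group lies mostly to the left, with 7 of 9 genes lower, and in the cargo group 8 of 18 are higher, a share of 44.4% beside 44.9% of all genes. Kif2b is drawn at its fitted change, which is not a measured size since its Fn signals were under the filter level.

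Promoter stretches of Kif2b, Kif3b and Kif17, which fell, and of Kif5c, which rose, are shown first, to set the letters known to be bound by regulators of germ cell genes beside the values that follow. Windows of 300 bases around a listed start were found in RefSeq (GRCm38.p6) for 36 of the 44 genes. For 17 of them a listed start lay at the 5′ end of the annotated gene or at most 30 bases inside it, and for the other 19, Kif9 and Kif27 among them, it lay further inside. Stretches were printed only for genes of the first kind, and those shown were picked by hand from the 17 and not by a rule. Kif5c is 1 of the 2 higher genes whose window held a full CRE, so its stretch does not stand for the higher genes. The motifs searched on both strands were the cAMP response element (CRE) TGACGTCA, its half-site TGACG, which the full element contains, the half-site GTTGCC of the X-box bound by RFX factors of ciliary genes, and the MYB core AACGG. Each line gives the 120 bases before a start, 5′ to 3′ on the strand of the gene, with every motif letter in capitals. The Kif2b line is chr11:91577556-91577675 (minus strand), that of Kif3b chr2:153291296-153291415 (plus), whose last 21 bases lie in the annotated gene, that of Kif17 chr4:138262131-138262250 (plus) and that of Kif5c chr2:49619166-49619285 (plus).
Kif2b: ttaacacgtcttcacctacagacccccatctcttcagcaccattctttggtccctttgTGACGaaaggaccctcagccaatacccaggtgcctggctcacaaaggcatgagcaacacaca
Kif3b: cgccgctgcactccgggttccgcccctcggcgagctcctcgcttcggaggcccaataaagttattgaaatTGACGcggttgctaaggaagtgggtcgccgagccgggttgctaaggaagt
Kif17: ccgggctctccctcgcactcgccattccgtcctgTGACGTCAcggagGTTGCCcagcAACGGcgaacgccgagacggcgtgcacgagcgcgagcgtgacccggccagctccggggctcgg
Kif5c: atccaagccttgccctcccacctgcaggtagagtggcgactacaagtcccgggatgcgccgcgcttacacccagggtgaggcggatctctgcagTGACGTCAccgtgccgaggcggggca

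The Kif17 stretch held a full CRE, an X-box half-site and a MYB core side by side, and the Kif5c stretch a full CRE. Over whole windows, wherever their starts lay, the CRE was found in 1 of 12 lower kinesin genes with a window, in 2 of 12 higher ones, in 1 of 8 that did not pass the test, and in 2.03% of the 27025 genes with a window. Its half-site was found in 3 lower, 9 higher and 4 uncalled kinesin genes (23% of all genes). The X-box half-site was found in 5 lower, 3 higher and 3 uncalled ones (14.1% of all genes), and the MYB core in 4 lower, 1 higher and 3 uncalled ones (19.6% of all genes). These matches are descriptions of letters in a window and not of bound sites.

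Among the kinesins of cilia and flagella, Kif9, Kif27 and Kif3b fell by more than 2-fold. Kif9, a kinesin of the axoneme that sperm of the mouse need for normal swimming, had signals of 439.6, 630 and 450.9 in Fn testes and of 3221.4, 3185.3 and 4207.4 in Wt testes. All Fn arrays lay far below all Wt arrays, and Kif9 fell by 2.81 on the log2 scale (SE 0.16, limma adjusted p = 9.3e-07). Kif27, a relative of the Hedgehog pathway kinesin Kif7 that works with the kinase STK36 in motile cilia of the mouse, had signals of 227.7, 294.1 and 108.7 in Fn and 678.1, 814.9 and 935.9 in Wt testes. The groups did not overlap, and the log2 change was -2.05 (SE 0.32, adjusted p = 0.00039), with Fn replicate 3 the lowest of all arrays and a change of -1.63 without it. Stk36 itself was lower as well, with a log2 change of -1.22 (adjusted p = 3.8e-05), and was singled out after its value was seen.

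Kif3b, Kif3a and Kif3c are the motor chains of heterotrimeric kinesin-2, the motor that carries intraflagellar transport trains outward, and the trimer holds Kif3a with either Kif3b or Kif3c and the accessory chain made from Kifap3. Kif3b had signals of 546.6, 624.4 and 695.5 in Fn testes and of 1974.9, 1955.9 and 2691.8 in Wt testes, without overlap (log2 change -1.82, SE 0.15, adjusted p = 8.4e-06 from limma). Its other 3 probe sets fell alike, with log2 changes of -1.08, -1.15 and -1.40. Kif3a, the partner chain, fell less, with 1630.1, 1756.1 and 1528.1 in Fn and 2100, 2079.2 and 2301.1 in Wt testes. Its log2 change was -0.40 (SE 0.094, adjusted p = 0.0046), but of its 4 probe sets 2 fell and 2 did not pass the test, at 0.39 and -0.13, and the mean of all 4 had a change of -0.14 (adjusted p = 0.34). Kif3c went the other way, with 268.3, 284.6 and 246.8 in Fn and 192.8, 232.9 and 146.5 in Wt testes (log2 change 0.51, adjusted p = 0.044). Its second and dimmer probe set had overlapping groups and a change of 0.06 (adjusted p = 0.86). The call of the brighter one was lost under 11 of 16 alternatives. Among them were each other scaling (adjusted p of 0.12 to 0.16), leaving out any one of the arrays other than Wt replicate 2, and averaging its probe sets (adjusted p = 0.26). Kifap3 had 1337.2, 1282.9 and 1252.8 in Fn and 1451, 1575.8 and 1497.1 in Wt testes, a log2 change of -0.22 that did not pass the test (adjusted p = 0.056).

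The unequal change of the chains was also read as a ratio within each array, which does not depend on the scaling. The log2 ratio of Kif3b over Kif3a signals was -1.58, -1.49 and -1.14 in Fn arrays and -0.09, -0.09 and 0.23 in Wt arrays, a difference of -1.42 between the groups. By the brightest probe set of each gene, the ratio of Kif3c over Kif3a was -2.60, -2.63 and -2.63 in Fn and -3.45, -3.16 and -3.97 in Wt arrays, a difference of 0.91. In both cases the groups did not overlap, and the two-sided exact permutation p was 0.1, the smallest that 3 against 3 arrays allows. The ratio of Kifap3 over Kif3a differed by 0.18, with overlapping groups (exact permutation p = 0.2).

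**Figure D2:**
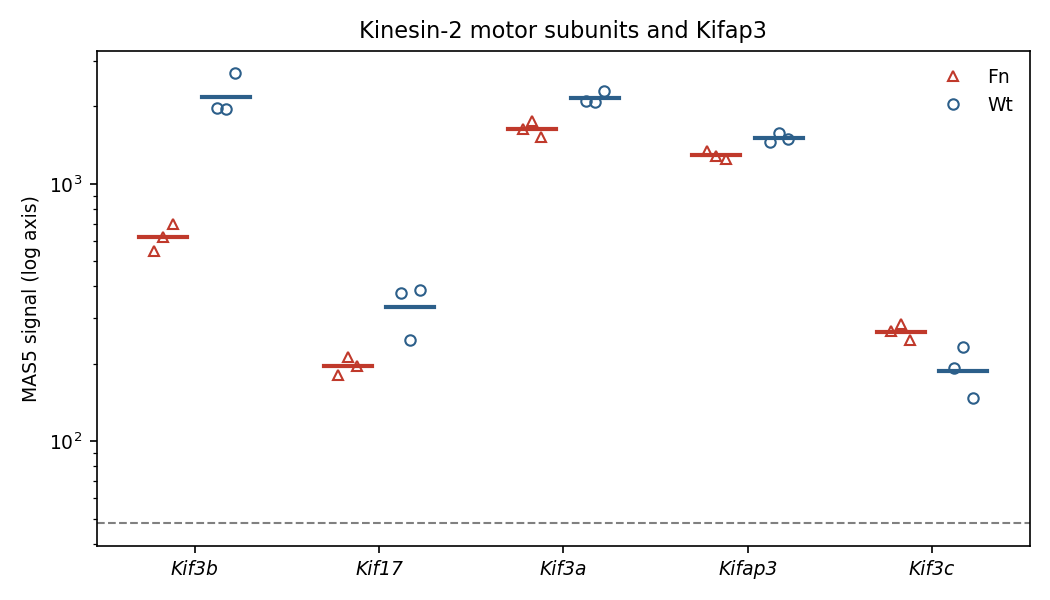
Signals (MAS5, log axis) of the kinesin-2 motor chains and of Kifap3 in each of 3 Fn arrays (triangles) and 3 Wt arrays (circles), with geometric means as short bars and the filter level of 48 as a dashed line. Kif3b and Kif17 are lower in all Fn arrays, Kif3a is lower by less (log2 change -0.40), and Kif3c is higher (0.51). The call of Kif3c was lost under 11 of 16 alternatives.

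The other kinesins of this group changed by less than 2-fold. Kif17, the homodimeric kinesin-2 that in mouse germ cells shuttles the CREM co-activator ACT between nucleus and cytoplasm, had 181, 212.2 and 195.7 in Fn and 377.6, 248 and 388.3 in Wt testes. The groups did not overlap (log2 change -0.76, SE 0.20, adjusted p = 0.0077), and its second probe set fell by 1.07 on the log2 scale. Another, dimmer one had 34.8, 13 and 35.3 in Fn, all under the filter level, and 118.6, 73.9 and 145.3 in Wt testes, at least 2.26-fold lower. Fhl5, the gene for ACT, had 5.9, 16.1 and 5.8 in Fn and 343, 130.2 and 274 in Wt testes, which is at least 4.80-fold lower with the filter level taken for Fn, and was not tested because its mean lay under the filter. Crem fell by 2.92 on the log2 scale (adjusted p = 2.6e-07). Kif6, needed in mouse ependymal cilia, had a log2 change of -0.80 (adjusted p = 0.0083) and Kif24, a kinesin of the mother centriole, one of -0.64 (adjusted p = 0.013). For both, a second and dimmer probe set did not fall, at 0.13 and 0.02, and neither passed the test with the mean of the probe sets (adjusted p = 0.26 and 0.49). Kif7, which organises the tip of the primary cilium for Hedgehog signalling, was higher, with 275, 306.8 and 349.7 in Fn and 162.5, 183.5 and 176.5 in Wt testes (log2 change 0.83, adjusted p = 0.0014). The Hedgehog transcription factor genes Gli1, Gli2 and Gli3 were higher too, by 1.25, 1.16 and 1.06 on the log2 scale (adjusted p = 0.00071, 0.00031 and 0.00051 from limma), and Sufu was not called (-0.26, adjusted p = 0.097).

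In the spindle and division group one gene stood apart. Kif2b, a kinesin-13 that takes microtubule ends apart at kinetochores, had signals of 4.3, 6.7 and 5.6 in Fn testes and of 666.5, 356.9 and 560.5 in Wt testes. Each Fn value was under the filter level of 48, so Kif2b was lower by at least 10.6-fold when that level is taken for Fn. The gene passed the filter on its mean only through the Wt arrays, and without any one of them it was not tested, so its call is given in the counts alone.

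The other kinesin-13 genes fell by less. Kif2a, which works at spindle poles and in neurons, had 2345, 2295.2 and 2251 in Fn and 3156.2, 3090.9 and 3326.6 in Wt testes (log2 change -0.47, adjusted p = 0.00058), and a second probe set gave the same change. A further pair of its probe sets fell more, by 1.29 and 1.13 on the log2 scale. The brighter of this pair had 1176.2, 1128.6 and 1312.3 in Fn and 2745.4, 2868.9 and 3244.3 in Wt testes, so its log2 ratio to the brightest probe set was -1, -1.02 and -0.78 in Fn and -0.20, -0.11 and -0.04 in Wt arrays. These groups did not overlap (difference -0.82, exact permutation p = 0.1). The transcripts that each probe set reads were not determined here. Kif2c, the kinesin-13 of mitotic centromeres, had a log2 change of -0.55 (adjusted p = 0.0014), with all 3 probe sets tested lower, although the mean over all its probe sets did not pass (-0.35, adjusted p = 0.066). Its brightest probe set is of a kind whose probes may match other transcripts.

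Motors of late division fell and rose side by side. Kif20a, which takes the Aurora B complex to the midzone of the anaphase spindle, had 1304.6, 1389.2 and 1308.7 in Fn and 2038.2, 1978.9 and 2347.5 in Wt testes (log2 change -0.67, SE 0.098, adjusted p = 0.00031). Kif23, the motor of centralspindlin, which bundles the same midzone, had 1144.5, 1245.2 and 1161.1 in Fn and 927.9, 888.6 and 671.3 in Wt testes (log2 change 0.53, adjusted p = 0.0074, or 0.053 with the arrays centred on their medians). A second, dimmer probe set of Kif23 had a log2 change of 0.4 and was not called (adjusted p = 0.053 from limma). The groups of each gene did not overlap, and the within-array log2 ratio of Kif20a over Kif23 was 0.19, 0.16 and 0.17 in Fn and 1.14, 1.16 and 1.81 in Wt arrays (exact permutation p = 0.1). Kif18b, a plus-end kinesin of mitotic microtubules, had 446.3, 437.9 and 453.4 in Fn and 666.8, 694.9 and 794.3 in Wt testes (log2 change -0.68, adjusted p = 0.00081). Kif20b, a cytokinesis motor, had a log2 change of -0.40 (adjusted p = 0.02), which was lost without Fn replicate 1, Fn replicate 3 or Wt replicate 2 (adjusted p = 0.051, 0.063 and 0.054) and with its probe sets averaged (adjusted p = 0.26). Kif4, the X-linked chromokinesin, had 413.1, 415.1 and 327.7 in Fn and 239.2, 276.7 and 202 in Wt testes (log2 change 0.69, adjusted p = 0.0059).

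The remaining 4 division kinesins tested did not pass. Kif22, a chromokinesin, had a log2 change of 0.13 by its brightest probe set and of -0.03 and -0.05 by the others, and Kif18a, which aligns chromosomes and without which mice lose germ cells, had one of 0.15. Kif11, the motor that pushes spindle poles apart, had signals of 793.6 to 947.9 in Fn and 580.1 to 790.9 in Wt testes, which just failed to overlap (log2 change 0.33, adjusted p = 0.066, or 0.036 with the replicate number as a block and 0.032 without Wt replicate 3). Kifc1, a minus-end motor that focuses spindle poles, had one of 0.42 (adjusted p = 0.086), and its probe set may also read its near copy Kifc5b.

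Of 11 proliferation genes tested 2 were lower (18.2%, against 24.7% of all genes), 6 higher (54.5%, against 44.9%) and 3 did not pass, with a median log2 change of 0.19. The mitotic kinase gene Plk1 and the cyclin gene Ccnb2 were lower, with log2 changes of -1.37 and -1.25, while the replication genes Mcm2 and Mcm5 were higher, with 1.06 and 0.93. Prc1, the microtubule bundler that binds Kif4, fell by 1.53 on the log2 scale (adjusted p = 1.5e-06), and the centralspindlin partner of Kif23, Racgap1, had a log2 change of 0.05 (adjusted p = 0.62). Cenpe, a kinetochore kinesin whose symbol lies outside the rule, had 899.8, 1000.6 and 845.4 in Fn and 948.3, 973.5 and 1136.3 in Wt testes, with overlapping groups and no call (-0.15 on the log2 scale, adjusted p = 0.28).

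**Figure D3:**
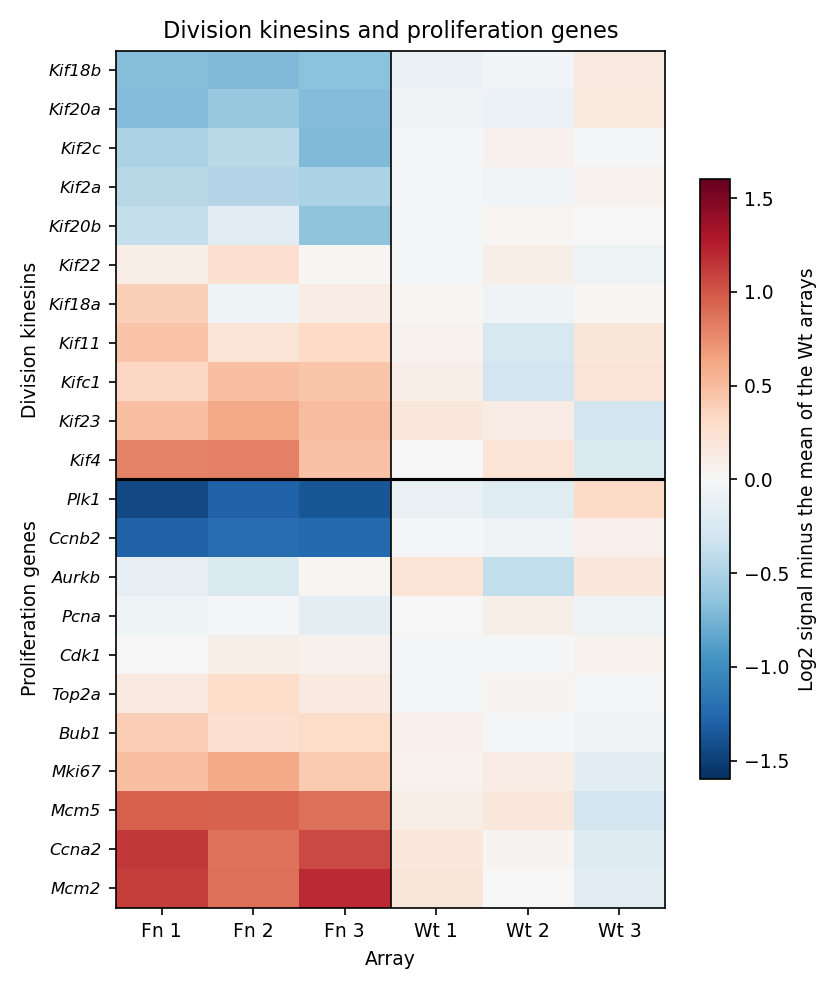
Log2 signal of each array minus the mean of the 3 Wt arrays, for the division kinesins tested other than Kif2b (upper block) and the proliferation genes tested (lower block), with Fn arrays on the left. Blue is lower and red higher than the Wt mean. The 5 division kinesins at the top, from Kif18b to Kif20b, are lower in all Fn arrays, and Kif23 and Kif4 are higher, by 0.53 and 0.69.

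Among the kinesins of cargo transport 2 of 18 fell and 8 rose, with the share that rose, 44.4%, close to the 44.9% of all genes, and 3 rose by more than 2-fold. Kif21a, a kinesin that quiets growing microtubule ends at the cell cortex, had 1484.5, 1473.6 and 1680.1 in Fn testes and 844.4, 805.6 and 625.5 in Wt testes. The groups lay well apart (log2 change 1.04, SE 0.13, adjusted p = 0.00014 from limma), and its second probe set tested had a change of 0.79. Kank1 and Kank2, whose proteins hold KIF21A at the cortex, were higher as well, by 1.10 and 1.02 (adjusted p = 5.9e-05 and 7.4e-05). Kif1a, known as a carrier of synaptic vesicle precursors in neurons, had 142, 104.4 and 194.5 in Fn and 73.8, 42.2 and 44.1 in Wt testes, near the filter level in Wt (log2 change 1.46, SE 0.32, adjusted p = 0.0033). A second probe set of almost the same brightness had overlapping groups and a change of 0.52 (adjusted p = 0.18). Kif26a, counted among the 8 and the 3 of this group, is a kinesin-like protein without motor activity. It had 181.4, 192.6 and 128.6 in Fn and 19, 133.1 and 68 in Wt testes, so the groups overlapped. Its log2 change of 1.57 (SE 0.58, adjusted p = 0.04) fell to 0.79 without Wt replicate 1 (adjusted p = 0.07), and the call was also lost without Fn replicate 1, Fn replicate 2 or Wt replicate 3 (adjusted p = 0.069 to 0.097). In all it was lost under 9 of 15 alternatives, among them 75th percentile centring (adjusted p = 0.062), quantile normalization (0.064) and no filter (0.063).

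**Figure D4:**
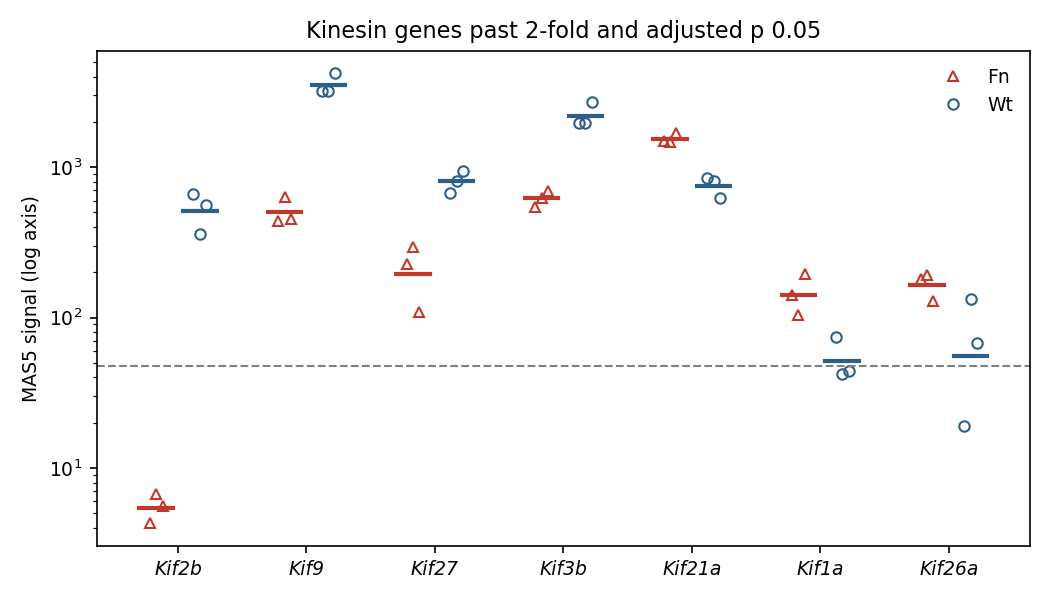
Signals (MAS5, log axis) of the 7 kinesin genes with an adjusted p under 0.05 from limma and a change of more than 2-fold, in each of 3 Fn arrays (triangles) and 3 Wt arrays (circles). Geometric means are drawn as short bars, and the filter level of 48 as a dashed line. Kif2b is under that level in every Fn array, and Kif26a is the gene of these whose groups overlap.

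The conventional kinesin heavy chains showed how much the choice of probe set can matter. Kif5b, the heavy chain used in most cells, had 2824.6, 3090.3 and 986.6 in Fn and 1522.7, 1755.7 and 639.2 in Wt testes by its brightest probe set, where replicate 3 of both genotypes was low. The groups overlapped and the log2 change of 0.78 did not pass the test (adjusted p = 0.17), but it passed with the replicate number as a block (adjusted p = 2e-04) and without Fn replicate 3 (1.31, adjusted p = 0.01). Its other 4 probe sets tested were each higher, by 0.90 to 1.04. The next brightest had 1801.4, 2478.7 and 2056.1 in Fn and 903, 1501.9 and 1046.1 in Wt testes, with no drop in replicate 3, and every Fn value lay above every Wt value. The brightest probe set of Actb, the beta-actin gene, was also low in replicate 3 of both genotypes, at 10680.3 in Fn and 10475 in Wt, against 17913.9 and 18745.8 in the other Fn arrays and 16743.4 and 16869.7 in the other Wt arrays. Whether these dips share a source was not tested. Kif5c, the heavy chain of neurons, had 637.4, 696.4 and 561.2 in Fn and 416.4, 390.1 and 386.6 in Wt testes (log2 change 0.66, adjusted p = 0.0015). Kif5a did not pass the test, at 0.22.

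Of the 3 light chain genes tested, whose proteins bind the cargo, 1 was higher and 2 did not pass. Klc1 had a log2 change of 0.39 (adjusted p = 0.042), a call lost under 8 of 16 alternatives. Among them were each other scaling (adjusted p of 0.15 to 0.27) and leaving out Fn replicate 2, Fn replicate 3, Wt replicate 1 or Wt replicate 3 (adjusted p = 0.097 to 0.13). Klc4 did not pass, at 0.26. Klc3, the light chain that in rodents sits on the outer dense fibres and mitochondria of the sperm tail, had 96, 77.4 and 122.7 in Fn and 65, 68 and 31.6 in Wt testes, close to the filter level. All Fn values lay above all Wt values, and the change of 0.90 fell just short (adjusted p = 0.051, or 0.043 without Fn replicate 2 and 0.039 without Wt replicate 2). Odf1, the outer dense fibre gene whose protein binds KLC3, was in contrast lower, with 16.1, 27.4 and 10.1 in Fn and 1232.2, 738 and 1124.1 in Wt testes.

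Other cargo motors that rose belong to kinesin-3. Kif13a, a carrier of endosomes and melanosome cargo, had 414.6, 381.7 and 430.2 in Fn and 206.3, 241.8 and 196.5 in Wt testes (log2 change 0.93, adjusted p = 0.00044), but averaging its probe sets gave 0.62 (adjusted p = 0.093). Kif1c, a carrier of dense vesicles and integrins, had 429.6, 411 and 393 in Fn and 228.4, 287.3 and 179.1 in Wt testes (log2 change 0.85, adjusted p = 0.0027). Kif1b, which carries mitochondria and synaptic vesicle precursors through its isoforms, had a log2 change of 0.33 by its brightest probe set (adjusted p = 0.021). That call was lost under each other scaling (adjusted p of 0.084 to 0.29) and without Fn replicate 1, Fn replicate 2 or Wt replicate 2 (adjusted p = 0.056 to 0.081), although 5 of its 7 probe sets were higher, at 0.33, 0.53, 0.70, 0.94 and 1.13, and the other 2, at -0.19 and 0.24, did not pass. Kif13b had a log2 change of 0.09 and the early endosome motor Kif16b one of -0.02, and neither passed.

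Of the cargo motors 2 fell. Kifc3, a minus-end motor of the adherens junction and of apical transport, had 242.4, 296 and 350.8 in Fn and 535.9, 527.2 and 621 in Wt testes (log2 change -0.93, SE 0.16, adjusted p = 8e-04), without overlap. Kif21b, a relative of Kif21a known from neurons and lymphocytes, had a log2 change of -0.39 (adjusted p = 0.049), lost with the replicate number as a block (adjusted p = 0.052), with no filter (0.079), with the robust variance prior (0.051) and without any one of the arrays other than Fn replicate 3 (adjusted p = 0.059 to 0.18). Kifc2, of neuronal dendrites, had 65.5, 23 and 110.7 in Fn and 102.9, 88.8 and 95.7 in Wt testes (log2 change -0.80, adjusted p = 0.19, or -1.30 and 0.029 without Fn replicate 3), and its second probe set had a change of 0.67. Kif26b did not pass the test, at -0.11.

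Of the 23 kinesin genes with more than 1 probe set tested, 17 had all of them on one side of 0, and 0 had one probe set lower and another higher at an adjusted p under 0.05. For Kif6, Kif24, Kif3a, Kifc2, Kif22 and Kif1b the probe sets lay on both sides of 0. Of the 15 lower genes 9 stayed past the threshold under every alternative in which they were tested, namely Kif9, Kif27, Kif3b, Kifc3, Kif17, Kif18b, Kif20a, Kif2a and Kif2b. The last, Kif2b, passed the filter only through its Wt arrays. It was tested in 12 of the 16 alternatives, and not without any one Wt array or at the higher filter. Its place in this count is therefore no measure of how stable its call is. Of the 12 higher genes 6 did, namely Kif21a, Kif1a, Kif1c, Kif7, Kif4 and Kif5c.

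**Figure D5:**
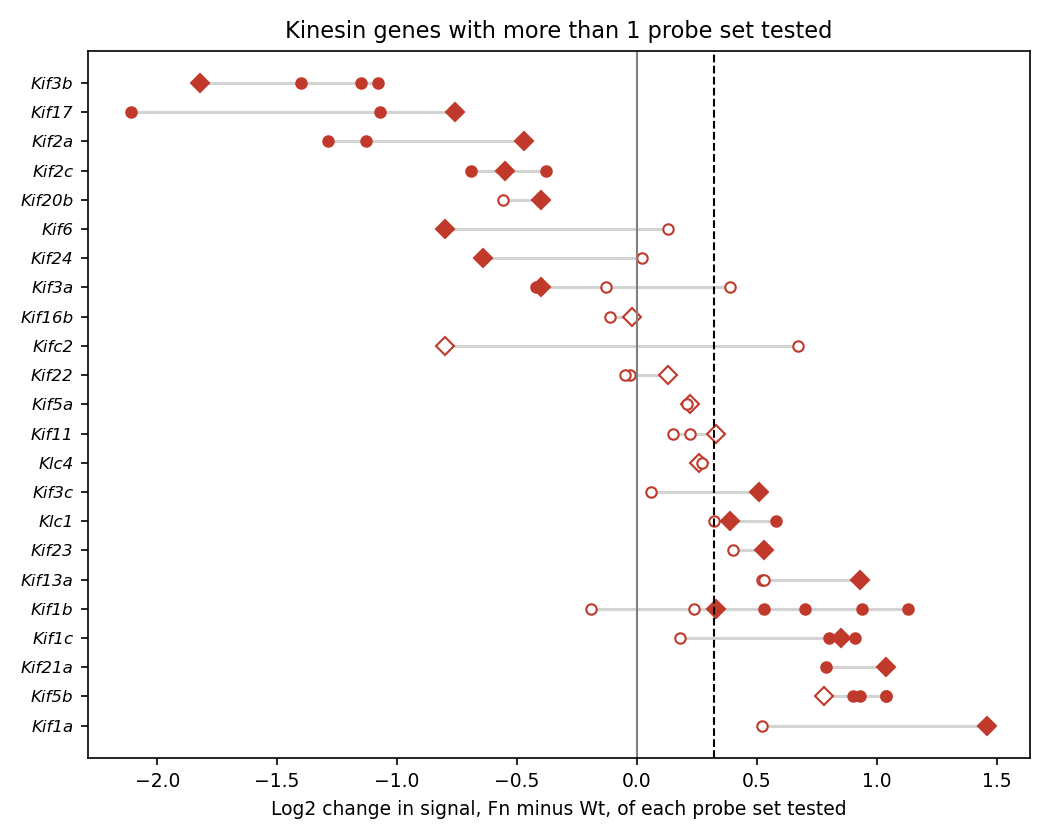
Fn minus Wt difference in log2 signal for every tested probe set of the 23 kinesin genes that have several, ordered by the median of the gene. Diamonds mark the probe set that stands for the gene. Filled points are probe sets with their own adjusted p below 0.05 from limma, and open points are the other probe sets. A grey line is drawn at 0 and a dashed one at 0.32, the median of all genes. Kif2a splits into a pair at -0.47 and a pair at -1.29 and -1.13, and Kif1b runs from -0.19 to 1.13.

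Of 26 genes tested that bind or work with kinesins, or are kinesins under other symbols, 8 were lower (30.8%, against 24.7% of all genes), 10 higher (38.5%, against 44.9%) and 8 did not pass the test. Their median log2 change was 0.05, and that of all genes 0.32. The lower ones with the smallest p were Crem, Odf1, Prc1 and Mapk8ip2. Odf1 was under the filter level in every Fn array and was tested only through its Wt arrays, so its p does not support its place here. Mapk8ip2, a scaffold that binds kinesin light chains, had 429.4, 561.1 and 350.5 in Fn and 2051.7, 2402.4 and 2824.5 in Wt testes. The higher ones with the smallest p were Trak2, Kank1, Spag9 and Kank2. Trak2, whose protein links kinesin-1 to mitochondria, had 683.7, 825.1 and 786.1 in Fn and 359.7, 299 and 316.2 in Wt testes (log2 change 1.23, adjusted p = 5e-05), and Spag9, another scaffold of kinesin-1, rose by 0.68 (adjusted p = 7.1e-05). Adaptors of one motor class thus had values on both sides, with Mapk8ip2 at -2.46 and Trak2 at 1.23 on the log2 scale.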

How the data were processed

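Testis RNA of 3 Fn and 3 Wt samples was labelled and hybridised to Affymetrix Mouse Genome 430 2.0 arrays, 1 per sample. The values deposited by the authors are MAS5 signals, scaled to one level between arrays, and are linear intensity values. No MAS5 version was found in the sources, and detection calls were not used. Of 45037 probe sets, 34945 named 1 gene in the platform annotation, 932 several and 9160 none, and those naming 1 gene were kept. One probe set that names Kif27 with another gene was left out. The 1 value of 0 was set to 0.1.

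Log2 signals of the 27022 probe sets at or above the 40th percentile of mean log2 signal (a signal of 48) were tested in R 4.3.3 with limma 3.58.1 (lmFit, eBayes with intensity trend), Fn against Wt, with Benjamini-Hochberg adjustment over all of them. A group under the filter level gives a fold as a bound. Ratios within an array were compared by two-sided exact permutation over arrays. Every member was named, with all values for those past the threshold by more than 2-fold. The members and lists were chosen with earlier results of these data known. Stk36, the Gli genes, Sufu, Racgap1, Actb and the proliferation genes were picked for naming with their values in view.

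Same-numbered Fn and Wt arrays deviated together (correlations of 0.13, 0.12 and 0.16, other pairs -0.15 to 0.04), a sign of pairing that no label states. The study names no test for these arrays, and its paired t tests are for other assays. All values here come from the fit without a block, unpaired in the ratios too, unless the block is named. On simulated arrays with the spread of the real ones, for Fn against Wt over 27022 probe sets, the test recovered 84% of 50 probe sets set 2 log2 units lower and 56% of 50 set 1 lower. It recovered 50% of 50 set 1 higher and 86% of 50 set 2 higher. All other probe sets were left without a change, whereas 24.7% of genes were called lower and 44.9% higher in the data. The adjustment was therefore stricter in the simulation, and these shares are not the recovery of the test on the real arrays. Alternatives covered the scaling, filter, pseudocount (16), probe set rule, variance prior, replicate block and each array left out. The number of arrays limits the precision.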

Additional observations from a re-analysis of the deposited data

How the results depend on the processing

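Each of 16 alternatives was applied to the counts of kinesin genes called, their median and each gene, with the probe set of a gene kept fixed except where all were averaged. No called gene changed its sign. The median log2 change of the kinesin genes, 0.13, became -0.03 after median centring, 0 after 75th percentile centring, 0.01 after quantile normalization and -0.03 with the mean of a gene's probe sets, and 0.06 to 0.15 without 1 array. With that mean, 34 genes were tested, 9 were lower and 1 was higher by more than 2-fold. With the filter at the 60th percentile 30 genes were tested, without Kif1a and Kif26a among others, and 1 was higher by more than 2-fold. That count was 2 to 7 without 1 array, and 7 without Wt replicate 2. The replicate block gave 14 lower and 14 higher genes. It ended the call of Kif21b, added Kif11 and Kif5b, and changed no other call. Among genes not called, the change was -0.07, -0.04 and -0.03 for Kif13b with median, 75th percentile and quantile scaling, and with median centring -0.03 for Kif22 and -0.01 for Kif18a. Without 1 array it ran from -0.25 to 0.05 for Kif26b (above 0 without Wt replicate 3) and from -0.08 to 0.04 for Kif16b (above 0 without Fn replicate 2, and 0.01 without Wt replicate 1). Apart from where a setting tests fewer genes or arrays, the cause was not tested. Signals near the filter level, as of Kif1a, Kif26a, Klc3 and Kifc2, limit what can be read from their changes.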
